A study of Homo sapiens with 4 samples.

Results

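Collagen chains are the genes studied here, taken as every gene row of the count table whose name has the form COL, a number, A and a number. The rule matched 45 of 64253 gene rows, which carry 39 distinct chain names, since COL11A2 has 7 rows and 6 of them are identifiers on alternate sequences with no counts. RNA was sequenced from A549 cells, a lung adenocarcinoma cell line, after transfection with NFATc2 or with NFATc2M, a form of NFATc2 with a deletion in its DNA binding domain. All 4 libraries, 2 for NFATc2 and 2 for NFATc2M, came from cells cultured in OPNc-CM, the conditioned medium of HEK-293 T cells that expressed the osteopontin isoform OPNc. NFATc2M served the study as the loss of function reference for transcripts that depend on DNA binding by NFATc2, and neither group is untransfected. Whether the 2 libraries of a group were grown as separate cultures is not stated, and p-values therefore refer to the spread between libraries, which may be technical.

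Collagens are proteins of the extracellular matrix in which 3 alpha chains wind into a helix. Fibrillar collagens such as types I, III and V form the fibres that carry load in the stroma, type IV forms the sheet-like network of basement membranes, type VI forms beaded filaments beneath them, and type VII forms the anchoring fibrils that fix an epithelium to its stroma. The chains need hydroxylation of proline and lysine in the endoplasmic reticulum, large secretory carriers and removal of propeptides outside the cell. In lung, fibroblasts make most of the fibrillar collagen, whereas epithelial cells contribute mainly to the basement membrane. NFATc2 is a calcium-activated transcription factor that binds DNA sites with the core GGAAA.

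Gene counts came to 21011786 to 23527259 per library. NFATC2, the gene on both plasmids, had 47791 to 58522 counts and did not pass the test (log2 fold change -0.08, edgeR's adjusted p = 0.67). Reads of the deleted and the wild type form fall on the same gene row, and the labels were therefore not checked by this level. Of the markers listed for A549 cells and lung epithelium, KRT8 and KRT18 had 19162 to 53963 counts, and ALDH1A1, AKR1B10 and AKR1C1 had 7166 to 89219. CDH1 and EPCAM were lower, at 210 to 265 and 48 to 70 counts. SFTPC, SFTPB and NKX2-1, which mark alveolar cells, had 0 to 4. Of 8 fibroblast markers, ACTA2 and THY1 had 91 to 127 counts, and PDGFRA and POSTN had 2 to 19. LUM, FAP and PDGFRB had 0 to 5, and DCN was at 0 in all 4 libraries. The summed level of the list was 9.67 and 11.8 CPM with NFATc2, against 11.4 and 10.9 CPM with NFATc2M. CPM values divide the count by the TMM-normalized size of its library. The summed level of 6 endothelial markers stayed between 0.139 and 1.23 CPM. Medium from HEK-293 T cells was applied to all libraries, and of 8 markers of that line 6 were tested and 0 passed in edgeR or limma, also at an unadjusted p of 0.05 in edgeR. Their summed level was 92.0 and 106 CPM with NFATc2, against 94.5 and 89.2 CPM with NFATc2M, with INA at 1405 to 1864 counts. NEFL, TUBB2B and LIN28B had 60 to 258 counts, and PAX2 and NEFM had 9 to 52. POU3F2 had 0 to 1, and CDKN2A was at 0 in all 4 libraries. As both groups received the medium, a test between them cannot show whether transcripts of that line were present.

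A549 cells carried counts for 31 of the 39 chains. COL1A2, COL6A5, COL6A6, COL8A1, COL9A1, COL14A1, COL19A1 and COL25A1 were at 0 in all 4 libraries, where a floor of 3 counts allows up to 0.129 to 0.142 CPM per library. A further 6 chains, COL9A3, COL26A1, COL10A1, COL3A1, COL2A1 and COL23A1, had 0 to 12 counts per library and fell below the filter, and 25 chains were tested. COL3A1, the chain of type III collagen in stromal fibres, had 2 and 1 counts with NFATc2, against 5 and 0 with NFATc2M. Levels between chains are given as RPKM, which divides CPM by the exonic length in kilobases. That length merges the exons of all annotated transcripts, 11133 bases for COL7A1 and 19271 for COL4A2. The order of chains and their ratios per length therefore depend on the annotation. In CPM, COL7A1 and COL4A2 were at 646 and 641 with NFATc2, against 1066 and 684 with NFATc2M. COL7A1 was the most abundant chain per length, at 76.9 ± 22.5 RPKM (SD, n = 4 libraries), above 97.2% of the tested genes. COL18A1, whose C terminal fragment is endostatin, followed at 46.2 ± 4.16 RPKM (SD, n = 4). COL5A2 and COL4A2 came next at 36.8 ± 0.544 and 34.4 ± 1.40 RPKM (SD, n = 4), then COL5A1 at 26.2 ± 1.04 and COL4A1 at 16.7 ± 1.13 (SD, n = 4). The ranges of neighbours in this order did not overlap down to COL6A1, at 12.6 ± 1.17 RPKM, which overlapped COL6A2 at 9.71 ± 2.0 (SD, n = 4). COL4A6, COL1A1, COL4A5, COL27A1 and COL12A1 lay between 1.57 and 4.89 RPKM, each overlapping the next in the order. The remaining tested chains were below 1 RPKM in every library.

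**Figure D1:**
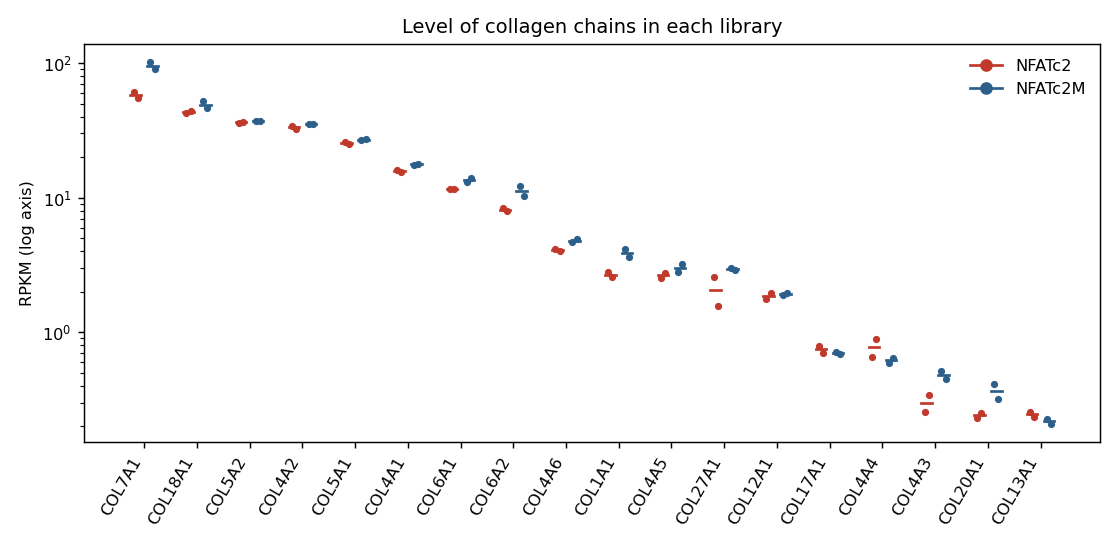
RPKM of the 18 chains with a mean of at least 50 counts, on a log axis, with 1 point per library and a line at the mean of the 2 libraries of each group. COL7A1 lies at 60.8 and 55.2 RPKM with NFATc2, against 102 and 89.9 with NFATc2M, the widest gap of the 18.

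COL7A1, COL6A2, COL1A1 and COL27A1 were lower with NFATc2 than with NFATc2M, and 0 chains were higher. Thus 4 of 25 tested chains were lower at an adjusted p of 0.05, beside 3.73% of all 17459 tested genes, and 0 were higher, beside 4.90%. All 4 also passed the fold threshold of the study, an absolute log2 fold change of 0.26. At an unadjusted p of 0.05 in edgeR, 6 chains were lower and 0 higher. The share of all tested genes at that level was not computed, so this count is no result about the chains. Limma called 0 chains higher, as did DESeq2 among the 13 chains to which it gave an adjusted p, the other 12 being left out by its filter on low counts. The 2 groups did not overlap in CPM for 16 chains that were lower, beside 26.0% of all tested genes, and for 2 that were higher, COL4A4 and COL13A1, beside 27.2%. The log2 fold change was below 0 in 18 of 25 chains, with a median of -0.18 over the chains and 0.00061 over all tested genes. The test was edgeR's quasi-likelihood test with Benjamini-Hochberg adjustment over all tested genes, and fold changes are NFATc2 over NFATc2M. This test estimates the spread of a gene partly from other genes, so its p-values do not rest on that gene's own libraries alone.

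GC content moved with these values. Across 17163 tested genes, the log2 fold change was correlated with the GC content of the exons (Pearson r = -0.46, a description over genes that share 4 libraries). This r was -0.28 without NFATc2M replicate 1 and -0.49 without NFATc2M replicate 2, and lay between these values without either NFATc2 library. In the bin of 62% to 64% GC the median gene had a log2 fold change of -0.25, with quartiles of -0.45 and -0.10. The tested chains had a median GC content of 53.2%, against 48.7% for all tested genes, and the 4 lower chains had 61.7%. Of the 10 tested chains below 50% GC, 0 were lower, and the 4 lower chains were among the 15 at or above it. Over the chains alone the correlation was weaker (r = -0.14, n = 25). In an alternative fit, the trend of log counts on GC content and exonic length was removed per library as an offset. There COL7A1 was the 1 chain that passed, beside 1.19% of all genes called lower, and 15 chains had a fold change below 0, with a median of -0.15 over the chains and 0.03 over all tested genes. A technical source of the trend cannot be told apart from a response shared by GC-rich genes in these 4 libraries.

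**Figure D2:**
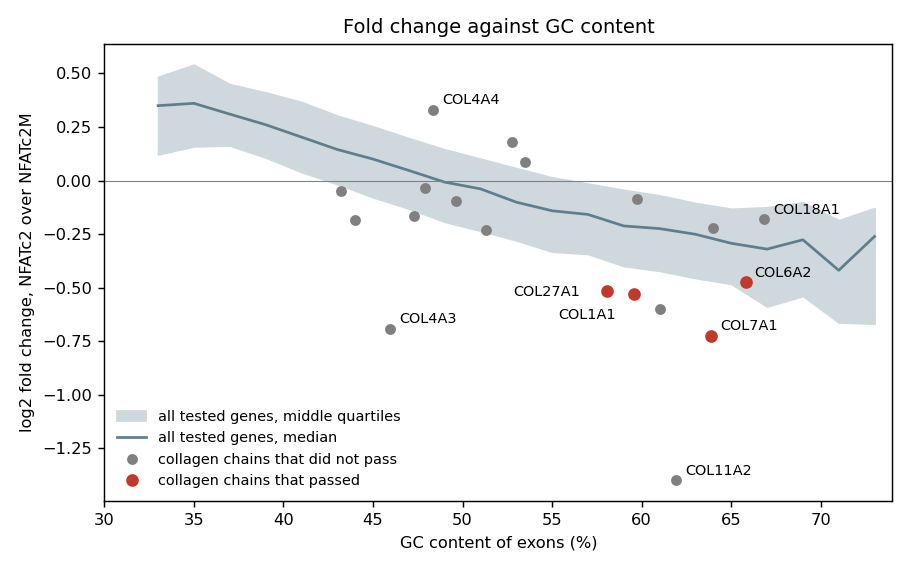
Fold change (log2, NFATc2 over NFATc2M) against exonic GC content, with the median (line) and middle quartiles (band) of all tested genes in bins of 2 percentage points and 19 collagen chains as points, those with a mean of at least 50 counts or an adjusted p under 0.1. COL7A1, COL1A1 and COL27A1 lie below the band, as do COL4A1, COL4A3, COL4A5, COL11A2, COL12A1 and COL20A1, which did not pass. COL4A4, COL13A1 and COL17A1 lie above it, whereas COL6A2 at 65.8% GC and COL18A1 at 66.8% GC lie within it.

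COL7A1 encodes the only chain of type VII collagen, so its mRNA alone sets the template for that trimer. It lies on chromosome 3 from 48564073 to 48595329 on the minus strand of GRCh38, with 119 exons. COL7A1 had 14630 and 14262 counts with NFATc2, against 23949 and 21661 with NFATc2M. Both NFATc2 libraries were below both NFATc2M libraries, with no overlap in counts, CPM or RPKM. Its level was 646 ± 44.2 CPM with NFATc2 and 1066 ± 92.7 CPM with NFATc2M (SD, n = 2 each). The log2 fold change was -0.72 (standard error 0.10, edgeR's adjusted p = 1.1e-07), which ranked 8 by p among the genes with a negative fold change. With the GC and length offset it was -0.42 (adjusted p = 0.0027, edgeR), and it passed in all 15 alternatives, with the largest adjusted p of 0.044 when NFATc2M replicate 1 was left out. COL7A1 made up 24.3% and 23.0% of all counts on collagen chains with NFATc2, against 32.8% and 30.6% with NFATc2M. The summed level of all chains was 2783 and 2675 CPM with NFATc2, against 3446 and 3272 CPM with NFATc2M. Without COL7A1 it was 2106 and 2060 CPM with NFATc2, against 2314 and 2271 CPM with NFATc2M, still without overlap. Per length, COL7A1 was at 1.42 and 1.26 times the level of COL18A1 with NFATc2, against 1.95 and 1.95 times with NFATc2M.

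The 250 bases before the annotated start are shown for COL7A1, COL6A2 and COL27A1, to set the letters before chains that were lower beside the site that NFATc2 binds. They come from the RefSeq promoter table (GRCh38.p14) and are printed 5′ to 3′ on the strand of the gene, with matches of the NFAT core GGAAA, or of its reverse complement, in capitals. They cover chr3:48595330-48595579 (minus strand) for COL7A1, chr21:46097862-46098111 (plus strand) for COL6A2 and chr9:114155287-114155536 (plus strand) for COL27A1. COL1A1, the other chain that was lower, has no entry in that promoter table.
COL7A1: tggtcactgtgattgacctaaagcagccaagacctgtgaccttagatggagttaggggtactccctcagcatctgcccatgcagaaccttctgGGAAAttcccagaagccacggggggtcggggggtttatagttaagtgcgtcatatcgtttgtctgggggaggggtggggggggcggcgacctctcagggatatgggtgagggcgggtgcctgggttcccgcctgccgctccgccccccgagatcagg
COL6A2: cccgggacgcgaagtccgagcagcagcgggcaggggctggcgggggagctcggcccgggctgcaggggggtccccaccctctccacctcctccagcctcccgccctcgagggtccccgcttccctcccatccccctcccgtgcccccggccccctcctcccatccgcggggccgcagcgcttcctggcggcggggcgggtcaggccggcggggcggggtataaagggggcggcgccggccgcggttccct
COL27A1: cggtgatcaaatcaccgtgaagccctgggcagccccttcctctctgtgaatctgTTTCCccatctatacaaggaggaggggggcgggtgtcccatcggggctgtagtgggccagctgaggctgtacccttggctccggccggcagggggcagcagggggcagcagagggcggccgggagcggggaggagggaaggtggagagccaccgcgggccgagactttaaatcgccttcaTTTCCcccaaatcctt
COL7A1 held 1 match of the NFAT core, whose first base lies at -157 from the start, COL27A1 held 2, at -196 and -16, and COL6A2 held 0. The core is short, and 55.7% of all 34788 promoters in the table hold it on either strand. The 20 tested chains with an entry have 28 promoters there, and 18 of these hold the core. The SP1 box GGGCGG, on either strand, was matched 3 times before COL7A1, 4 times before COL6A2 and 2 times before COL27A1. Of the 28 promoters, 17 hold it, beside 42.6% of all promoters. The AP-1 motif TGANTCA, which joins NFAT cores in composite sites of T cells, was in 0 of the 28, beside 6.59% of all promoters. These matches describe letters in the window and were not tested for binding.

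COL1A1 fell with NFATc2, and of the fibrillar chains COL27A1 fell as well, whereas the 2 abundant type V chains did not pass. COL1A1 encodes the alpha 1 chain of type I collagen and lies on chromosome 17 from 50184101 to 50201632. It had 545 and 536 counts with NFATc2, against 786 and 705 with NFATc2M. Both NFATc2 libraries were the lower ones, at 24.2 ± 1.5 CPM with NFATc2 and 34.9 ± 3.24 CPM with NFATc2M (SD, n = 2 each). Its log2 fold change was -0.53 (standard error 0.15, edgeR's adjusted p = 0.013). It did not pass without NFATc2 replicate 1 (adjusted p = 0.063), without NFATc2 replicate 2 (0.20) or without NFATc2M replicate 1 (0.35), nor with the GC and length offset (-0.28, adjusted p = 0.19, edgeR). COL1A2, the alpha 2 chain that joins COL1A1 in the usual type I trimer, was at 0, and per length COL1A1 was at least 214 to 315 times above the COL1A2 floor of 3 counts per library. Fibroblasts express both chains, and none of the 3 tested fibroblast markers passed in edgeR or limma, also at an unadjusted p of 0.05 in edgeR. In bulk RNA, fewer cells with a transcript and less transcript per cell cannot be told apart.

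COL27A1 encodes a fibrillar chain of cartilage and epithelia and lies on chromosome 9 from 114155537 to 114312511. It had 779 and 509 counts with NFATc2, against 884 and 887 with NFATc2M. NFATc2 replicate 2 was far below the other 3 libraries, so the level with NFATc2 was 29.0 ± 9.98 CPM, against 41.4 ± 0.565 CPM with NFATc2M (SD, n = 2 each). Its log2 fold change was -0.52 (standard error 0.16, edgeR's adjusted p = 0.028). Without NFATc2 replicate 2 the log2 fold change was -0.21 (edgeR's adjusted p = 0.64), and without NFATc2 replicate 1 it was -0.92 (adjusted p = 0.00091). DESeq2 gave an adjusted p of 0.075. It also did not pass without NFATc2M replicate 1 (adjusted p = 0.61), without NFATc2M replicate 2 (0.30) or with the GC and length offset (-0.29, adjusted p = 0.54, edgeR).

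Type V collagen sits inside type I fibrils and limits their width. COL5A1 had 6280 and 6442 counts with NFATc2, against 6293 and 6600 with NFATc2M (log2 fold change -0.08, standard error 0.10, edgeR's adjusted p = 0.68). COL5A2 had 5708 and 6209 counts with NFATc2, against 5768 and 5884 with NFATc2M (log2 fold change -0.03, standard error 0.10, edgeR's adjusted p = 0.89). COL5A1 averaged 284 ± 9.22 CPM with NFATc2 and 301 ± 5.31 CPM with NFATc2M, and COL5A2 averaged 266 ± 2.40 CPM with NFATc2 and 272 ± 0.539 CPM with NFATc2M (SD, n = 2 each), both slightly lower with NFATc2 and without overlap. The sign for COL5A1 turned with the GC and length offset (0.17). COL5A3, another chain of this type, had 19 and 5 counts with NFATc2, against 12 and 10 with NFATc2M. The type V transcript was therefore almost all COL5A1 and COL5A2, and the ratio of COL5A1 to COL5A2 per length was 0.722 and 0.680 with NFATc2, against 0.716 and 0.736 with NFATc2M, with overlap between groups. COL11A2, a fibrillar chain of cartilage, had 18 and 16 counts with NFATc2, against 50 and 36 with NFATc2M. Its log2 fold change of -1.40 (standard error 0.50) was the most negative of the tested chains and did not pass (edgeR's adjusted p = 0.057). It passed with upper quartile scaling (adjusted p = 0.047) and with the newer dispersion setting of edgeR (0.045). It did not pass in limma (adjusted p = 0.078) or with the GC and length offset (-1.11, adjusted p = 0.20, edgeR). DESeq2 gave COL11A2 no adjusted p. Its log2 fold change ran from -1.63 to -1.13 over the fits that leave out a library.

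Of the type VI chains, COL6A2 fell and COL6A1 did not pass. These chains form a trimer with COL6A3 in most tissues. COL6A2 (chromosome 21, from 46098112 to 46132848) had 959 and 982 counts with NFATc2, against 1386 and 1188 with NFATc2M. Its level was 43.3 ± 1.46 CPM with NFATc2 and 60.2 ± 7.51 CPM with NFATc2M (SD, n = 2 each), with no overlap. Its log2 fold change was -0.47 (standard error 0.13, edgeR's adjusted p = 0.0097). It did not pass without NFATc2 replicate 1 (adjusted p = 0.074), without NFATc2 replicate 2 (0.16) or without NFATc2M replicate 1 (0.39), and with the GC and length offset it was -0.15 (adjusted p = 0.43, edgeR). COL6A1, also on chromosome 21, had 1379 and 1500 counts with NFATc2, against 1536 and 1673 with NFATc2M (log2 fold change -0.22, standard error 0.12, edgeR's adjusted p = 0.25), and the sign turned with that offset (0.07). The ratio of COL6A1 to COL6A2 per length was 1.39 and 1.47 with NFATc2, against 1.07 and 1.36 with NFATc2M. The groups did not overlap in this ratio, and the exact permutation test over 4 libraries gave p = 0.333, the smallest 2-sided p that 2 against 2 allows. COL6A3 had 7 and 12 counts with NFATc2, against 14 and 4 with NFATc2M, and per length stood at 0.000835 to 0.00303 of COL6A2 across the 4 libraries. COL6A5 and COL6A6, the other chains that can take its place, were at 0.

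**Figure D3:**
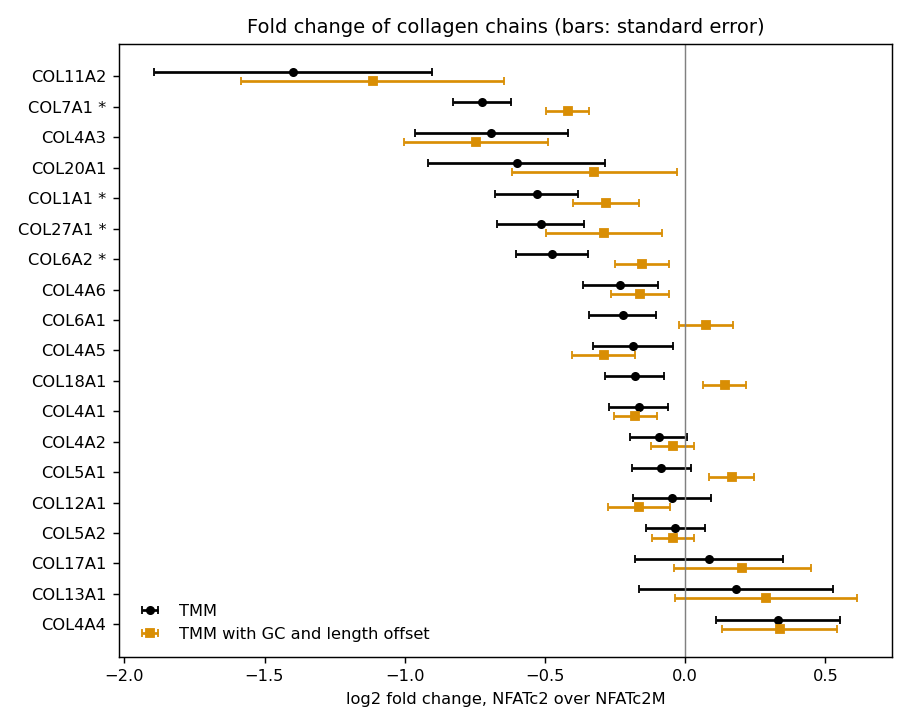
Fold change (log2, NFATc2 over NFATc2M) with its standard error for 19 chains, those with a mean of at least 50 counts or an adjusted p under 0.1, from the TMM fit (circles) and with the GC and length offset (squares), where an asterisk marks an adjusted p under 0.05 in the TMM fit. The values for COL7A1 are -0.72 and -0.42, and those for COL18A1, COL5A1 and COL6A1 lie below 0 without the offset and above 0 with it.

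The 6 type IV chains of the basement membrane were all tested and 0 passed in edgeR or limma, nor did the 4 with an adjusted p in DESeq2, which gave COL4A3 and COL4A4 none, and COL4A3 was the 1 with an unadjusted p under 0.05 in edgeR (0.012). They lie as 3 pairs of genes in opposite directions, with 127 bases between the starts of COL4A1 and COL4A2, 419 between those of COL4A3 and COL4A4 and 380 between those of COL4A5 and COL4A6. COL4A1 and COL4A2 make the type IV trimer found in nearly every basement membrane. COL4A1 had 5077 and 5279 counts with NFATc2, against 5438 and 5659 with NFATc2M (log2 fold change -0.17, standard error 0.10, edgeR's adjusted p = 0.35). COL4A2 had 14119 and 14573 counts with NFATc2, against 14458 and 14808 with NFATc2M (log2 fold change -0.09, standard error 0.10, edgeR's adjusted p = 0.63). The level of COL4A1 was 231 ± 5.29 CPM with NFATc2 and 259 ± 3.14 CPM with NFATc2M, and that of COL4A2 was 641 ± 18.0 CPM with NFATc2 and 684 ± 0.585 CPM with NFATc2M (SD, n = 2 each), both without overlap. Their ratio per length was 0.473 and 0.476 with NFATc2, against 0.494 and 0.502 with NFATc2M, slightly lower with NFATc2 and without overlap (exact permutation p = 0.333, the smallest possible).

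COL4A3, COL4A4 and COL4A5 make the trimer of the kidney and lung alveolar basement membranes. COL4A3 had 68 and 98 counts with NFATc2, against 135 and 120 with NFATc2M (log2 fold change -0.69, standard error 0.27, edgeR's adjusted p = 0.095). Its head-to-head partner COL4A4 had 168 and 246 counts with NFATc2, against 149 and 164 with NFATc2M (log2 fold change 0.33, standard error 0.22, edgeR's adjusted p = 0.38). Neither chain passed, but each was without overlap between groups, in opposite directions. The fold change of COL4A4 was 0.08 without NFATc2 replicate 2 and 0.54 without NFATc2 replicate 1, and that of COL4A3 ran from -0.93 to -0.50 over the 4 fits that leave out a library. The ratio of COL4A3 to COL4A4 per length was 0.389 and 0.383 with NFATc2, against 0.872 and 0.704 with NFATc2M. This was the widest shift of the 5 pairs plotted, and its exact permutation p was also 0.333. Their GC contents were close, 46.0% for COL4A3 and 48.4% for COL4A4, and the fold changes with the GC and length offset were -0.75 and 0.34. Of the exonic bases of COL4A3, 6.82% lie opposite exons of another gene, and the strand setting of the counting is not given in the sources used here. COL4A5 had 647 and 763 counts with NFATc2, against 703 and 827 with NFATc2M, and its partner COL4A6 had 830 and 869 counts with NFATc2, against 922 and 983 with NFATc2M. Their log2 fold changes were -0.19 and -0.23 (edgeR's adjusted p = 0.46 and 0.29), and their ratio per length overlapped between groups, at 0.610 and 0.687 with NFATc2, against 0.596 and 0.658 with NFATc2M.

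**Figure D4:**
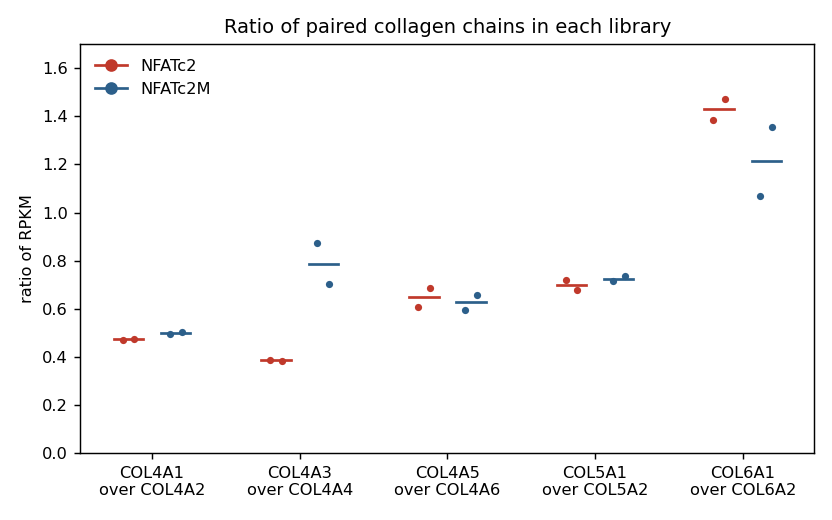
Ratio of RPKM of 5 pairs of chains that share a trimer or lie head to head, with 1 point per library and a line at the mean of the 2 libraries of each group. The ratio of COL4A3 to COL4A4 is 0.389 and 0.383 with NFATc2, against 0.872 and 0.704 with NFATc2M, whereas the other pairs lie closer together or overlap.

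COL18A1 is a multiplexin, a basement membrane collagen with heparan sulfate chains, and was the second chain per length. It had 7849 and 8579 counts with NFATc2, against 9327 and 8435 with NFATc2M, at 366 ± 4.55 CPM with NFATc2 and 415 ± 36.1 CPM with NFATc2M (SD, n = 2 each). The groups did not overlap in CPM, but the log2 fold change of -0.18 did not pass (standard error 0.10, edgeR's adjusted p = 0.28), and its sign turned with the GC and length offset (0.14). Of its exonic bases, 18.5% lie opposite exons of another gene. The other multiplexin, COL15A1, had 33 and 52 counts with NFATc2, against 33 and 37 with NFATc2M.

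The remaining tested chains were low and 0 of them passed in edgeR, also at an unadjusted p of 0.05, or in limma. DESeq2 gave an adjusted p to COL12A1 alone of these, which did not pass. COL12A1, which decorates the surface of fibrils, had 719 and 852 counts with NFATc2, against 749 and 799 with NFATc2M (log2 fold change -0.05, edgeR's adjusted p = 0.88). COL17A1, the transmembrane collagen of hemidesmosomes, to which anchoring fibrils connect through laminin, had 120 and 113 counts with NFATc2, against 106 and 104 with NFATc2M (log2 fold change 0.09, edgeR's adjusted p = 0.89). Both chains overlapped between groups in CPM. COL20A1 had 55 and 64 counts with NFATc2, against 96 and 76 with NFATc2M (log2 fold change -0.60, edgeR's adjusted p = 0.24). COL13A1, a transmembrane chain, had 64 and 63 counts with NFATc2, against 55 and 52 with NFATc2M (log2 fold change 0.18, edgeR's adjusted p = 0.81). COL21A1, COL22A1 and COL28A1 had 4 to 38 counts per library. COL10A1, the collagen of hypertrophic cartilage, lay below the filter with 0 and 0 counts with NFATc2, against 6 and 5 with NFATc2M, and was at least 1.92-fold lower with NFATc2 against the floor of 3 counts per library, which covers counting error only.

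Genes that modify, export, link, bind or degrade collagen were read from 6 lists with 66 genes, of which 54 were tested, 1 was lower, beside 3.73% of all tested genes, and 4 were higher with NFATc2, beside 4.90%. Shares this close to those of all genes are no result about the lists, and the genes that passed are given as single genes. Of 16 tested enzymes that modify proline and lysine, 2 rose and 14 did not pass. P4HA1, a catalytic subunit of prolyl 4-hydroxylase, had 784 and 832 counts with NFATc2, against 517 and 552 with NFATc2M (log2 fold change 0.53, standard error 0.15, edgeR's adjusted p = 0.011). PLOD2, which hydroxylates lysine in the telopeptides, had 5831 and 6103 counts with NFATc2, against 4135 and 4939 with NFATc2M (log2 fold change 0.33, standard error 0.11, edgeR's adjusted p = 0.032). The groups did not overlap for either enzyme. Their exonic GC contents are 40.2% and 36.0%, on the side of low GC content where the fold changes of all genes lay above 0. With the GC and length offset they did not pass, at 0.33 (adjusted p = 0.12) for P4HA1 and -0.01 (0.95) for PLOD2, whereas COLGALT1, which adds galactose to hydroxylysine, passed at 0.31 (adjusted p = 0.024, edgeR).

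Of 12 tested chaperones and carriers of secretion, 1 rose. SAR1A, a GTPase of the COPII coat, had 1880 and 2140 counts with NFATc2, against 1356 and 1629 with NFATc2M (log2 fold change 0.36, edgeR's adjusted p = 0.035). SERPINH1, the collagen chaperone HSP47, had 3610 and 4050 counts with NFATc2, against 4253 and 4009 with NFATc2M, and did not pass. Of 5 tested genes of propeptide removal 0 passed in edgeR, 2 had an unadjusted p under 0.05, and DESeq2 called 1, BMP1, the C-proteinase of fibrillar procollagens. BMP1 had 2439 and 2642 counts with NFATc2, against 3160 and 2888 with NFATc2M (log2 fold change -0.32, edgeR's adjusted p = 0.052). With the GC and length offset its log2 fold change was -0.05 (adjusted p = 0.79, edgeR). Of 7 tested crosslinking enzymes 0 passed in edgeR or limma, nor did the 2 with an adjusted p in DESeq2, with 1 at an unadjusted p under 0.05. The most abundant of them were TGM2, a transglutaminase, with 30398 to 33763 counts, and LOXL2, a lysyl oxidase of type IV collagen, with 14075 to 15744 counts.

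Of 8 tested receptors, 1 rose. ITGA2, the integrin chain that with ITGB1 binds type I collagen, had 4752 and 5431 counts with NFATc2, against 3404 and 4015 with NFATc2M (log2 fold change 0.39, edgeR's adjusted p = 0.010). The other 7 receptors, ITGB1 and the discoidin receptor DDR1 among them, did not pass. Of 6 tested genes of collagen breakdown, 1 fell. MMP14, a membrane-bound collagenase, had 49 and 48 counts with NFATc2, against 98 and 115 with NFATc2M. Both NFATc2 libraries had about the same low count, at 2.17 ± 0.141 CPM with NFATc2 and 4.97 ± 0.482 CPM with NFATc2M (SD, n = 2 each). Its log2 fold change was -1.20 (standard error 0.31, edgeR's adjusted p = 0.0065), and with the GC and length offset -0.96 (adjusted p = 0.064). DESeq2 gave MMP14 no adjusted p, because its filter on low counts left the gene out. MMP14 did not pass without NFATc2 replicate 2 (adjusted p = 0.081), without NFATc2M replicate 1 (0.23) or without NFATc2M replicate 2 (0.084). None of the 4 genes that rose passed when either NFATc2 library or NFATc2M replicate 1 was omitted, and SAR1A and ITGA2 did not pass with the GC and length offset (adjusted p = 0.18 and 0.25, edgeR).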

How the data were processed

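RNA-seq of A549 cells was read for 2 NFATc2 and 2 NFATc2M libraries, grouped by their sample titles. For the deposited table the authors used HISAT2 to place paired reads on GRCh38, SAMtools 1.18 for sorting and HTSeq 0.11.2 for Ensembl genes. It holds raw counts, deposited by the authors as whole numbers. The HISAT2 version and the strand setting are not given in the sources used here. Another 4 value columns without sample names were not used, and they hold the groups in the opposite order, so every direction rests on the column names. HTSeq's 5 summary rows, 56.4% to 57.4% of a library, were dropped. Near-identical or overlapping genes may share reads, and no correction was made.

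Differential expression was tested with edgeR 4.0.16 in R 4.3.3 (filterByExpr with a minimum of 10 counts, TMM, glmQLFit with robust estimation, glmQLFTest, 2 residual degrees of freedom), Benjamini-Hochberg adjusted over 17459 genes, with calls at 0.05. The fit was tested on simulated data. CPM uses TMM library sizes. Gene positions, lengths and GC content come from GENCODE 44, with length and GC content taken over the merged exons of all transcripts of a gene. Intervals and floors cover counting error only. Chains that passed, the 8 most abundant per length and their partners are given in full, as are listed pathway genes that passed. The chains and lists were chosen with earlier results of these data known. Alternatives were DESeq2 1.42.0, limma voom (limma 3.58.1), other scalings and filters, a replicate block, an offset for GC content and length fitted per library (splines with 5 degrees of freedom) and each library left out in turn. Exact permutation tests used scipy 1.17.1, and figures matplotlib 3.10.9.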

Additional observations from a re-analysis of the deposited data

How the results depend on the processing

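The count of 4 lower collagen chains became 1 with the GC and length offset and 1 with the replicate block and that offset, and ran from 1 to 3 when each library was left out. In all other alternatives it stayed within 1.5 times, and 0 chains were higher in every alternative. Of the pathway genes, the 4 higher became 2 with upper quartile scaling, 2 with library size scaling and 1 with the offset, with or without the replicate block, and 0 to 5 with a library left out. The 1 lower became 2 with DESeq2 size factors, upper quartile scaling, library size scaling, a filter at 50 counts or the replicate block, 0 with the offset, and 0 to 1 with a library left out. Over all genes, the 856 higher became 556 with library size scaling and 398 with the offset, and 0 to 1025 with a library left out. The 652 lower became 407 in DESeq2, 205 with the offset, 306 with the replicate block and offset, and 20 to 504 with a library left out. Where 1 library of a group was left, its spread was taken from the other group.

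The sign turned for COL18A1 (0.14 with the offset, 0.14 with the block and offset), COL5A1 (0.17 and 0.17) and COL6A1 (0.075 and 0.079). Leaving out a library gave COL12A1 -0.13 to 0.022 and COL17A1 -0.011 to 0.17. Deviations from the group mean were hardly correlated between the libraries numbered replicate 1 (0.041 over all tested genes). Counting error of low genes enters this value, so pairing by replicate number was not settled. The replicate block gave 1022 higher and 737 lower genes, with the same 4 chains lower. The cause of these changes was not tested. Tested chains with a mean under 50 counts had standard errors of 0.42 to 0.80 on the log2 scale, against 0.10 for COL7A1.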

Other observations

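Of the collagen genes, 5 carry no name in the count table and were named from the annotation alone. COL16A1, which lies along fibrils in small amounts, had 295 and 206 counts with NFATc2, against 375 and 383 with NFATc2M (log2 fold change -0.66, standard error 0.19, edgeR's adjusted p = 0.015), and -0.40 with the GC and length offset (adjusted p = 0.23). It passed without NFATc2 replicate 1 (adjusted p = 0.0072) and did not pass without NFATc2 replicate 2 (0.45), NFATc2M replicate 1 (0.37) or NFATc2M replicate 2 (0.11). COL11A1, a fibrillar chain of cartilage, had 44 and 40 counts with NFATc2, against 48 and 45 with NFATc2M, and did not pass. COL8A2 and COL9A2 lay below the filter and COL24A1 was at 0.

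The tested genes within 50 kb of COL7A1 were read after its own values had been seen, and all lie on the minus strand of chromosome 3. UCN2, a peptide of the corticotropin-releasing factor family, begins 31.5 kb downstream of the COL7A1 start and 292 bases past its end. It had 241 and 275 counts with NFATc2, against 551 and 466 with NFATc2M (log2 fold change -1.05, edgeR's adjusted p = 1.2e-05). PFKFB4, a bifunctional enzyme of fructose 2,6-bisphosphate whose annotation overlaps UCN2, had 459 and 621 counts with NFATc2, against 876 and 937 with NFATc2M (log2 fold change -0.82, edgeR's adjusted p = 3.6e-05). Both passed with the GC and length offset, at -0.74 (adjusted p = 0.0052) for UCN2 and -0.65 (0.0043) for PFKFB4. Neither passed without NFATc2M replicate 1 (adjusted p = 0.085 for UCN2 and 0.060 for PFKFB4), and both passed when any other library was left out. SLC26A6 and CELSR3 fell by 0.55 and 0.38 on the log2 scale (edgeR's adjusted p = 0.0068 and 0.047) and did not pass with the offset (0.14 and 0.64). SLC26A6 passed without NFATc2M replicate 2 (adjusted p = 0.037) but not when NFATc2M replicate 1 (0.20) or NFATc2 replicate 1 (0.11) or 2 (0.062) was left out, and CELSR3 did not pass when any of the 4 was left out (adjusted p = 0.060 to 0.41). UQCRC1, a complex III subunit that starts upstream of COL7A1, had 4643 and 4966 counts with NFATc2, against 4752 and 4230 with NFATc2M (log2 fold change 0.03, edgeR's adjusted p = 0.91), and was higher with the offset (0.28, adjusted p = 0.038). Reads shared between UCN2, PFKFB4 and COL7A1 were not tested.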
